A study of Mus musculus with 6 samples.

Results

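The last day of differentiation under microRNA induction was examined in embryoid bodies of A2.miR200c, a single mouse embryonic stem cell (ESC) line that carries the miR-200c/miR-141 cluster under a doxycycline-responsive promoter. The comparison set the induced array of day 5 over the induced array of day 4, which are 2 of the 6 arrays of the series. The induced cultures were given doxycycline at 500 ng/mL on days 2 and 4, and the untreated cultures of days 3, 4 and 5, with no doxycycline, were used only where a difference is shown. All cultures were of the same line, kept on embryonic fibroblast feeders, passaged once without them and then differentiated in suspension in serum. Each treatment and day was measured on 1 Affymetrix array of total RNA, so no culture was repeated, and no p-value or replicate error belongs to the induced change alone. Doxycycline itself cannot be told apart from the microRNAs, since these arrays hold no treated line without them, and whether the day 4 RNA was taken before or after the second dose is not given in the sources used here.

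MicroRNAs of the miR-200 family pair through bases 2 to 8, their seed, with messenger RNAs and lower the output of those messages. The family is abundant in epithelial cells and in undifferentiated ESCs, and its best known targets are the transcription factors Zeb1 and Zeb2, which repress E-cadherin. When ESCs differentiate in embryoid bodies, they lose the naive state, pass through a state like that of the epiblast, and then form cells like those of the primitive streak, from which mesoderm and definitive endoderm arise through an epithelial-to-mesenchymal transition (EMT).

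The induced microRNAs are shown because they define the treatment, with the seed in capitals, as given by RefSeq on GRCm38.p6. Both lie on the minus strand of chromosome 6, miR-200c-3p at chr6:124718324-124718346 and miR-141-3p at chr6:124717917-124717938.
mmu-miR-200c-3p: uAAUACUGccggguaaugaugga
mmu-miR-141-3p: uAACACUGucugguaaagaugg
Their seeds differ by 1 base, U4C, counted from the 5′ end of miR-200c-3p, so the cluster holds both seed sequences of the family.

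Of 9997 genes tested, 202 were at least 2-fold higher on day 5 (2.02%) and 61 were at least 2-fold lower (0.61%) in the induced cultures. Differences are given as log2(intensity + 50), on which a value of 1 is 2-fold and on which the change of dim genes is understated. Genes were tested where at least 1 of the 6 arrays was at or above 80.1, the median over all genes and arrays, and each gene was read from the probe set with the highest mean. Higher genes outnumbered lower ones although the median difference of all genes was 0.003. Between the induced and untreated arrays of day 3, by comparison, 1 gene was at least 2-fold higher and 1 lower, and no repeated array gives the scatter itself. Just inside the threshold were Gas1 at 1.0 and Fat4 at 1.01 among the higher genes and Cebpd at -1.01 and Ptn at -1.02 among the lower. Just outside were Plekha8 at 0.999, Zfp362 at 0.995, Gbe1 at -0.999 and Sema3c at -0.99. On day 4, 178 of the 202 higher genes were above the background level of 36.8, which is the 95th percentile over 77 genes of smell and taste receptors (olfactory, vomeronasal, trace amine-associated and taste), and all 202 were above it on day 5. A background value on 1 of the arrays makes the fold a lower bound, which applied to 24 higher and 2 lower genes, Bmp5, Lgr5, Fgf3, Hoxb2 and Col1a1 among the higher. In whole cultures, fewer cells of a type and less RNA per cell cannot be told apart.

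Most of the remaining probe sets of these genes moved the same way. Among the higher genes, 101 had other probe sets above background, and in 91 of these all other probe sets moved the same way, with all at least 2-fold in 30. Among the lower genes, 24 of 25 did so, with all at least 2-fold in 7. When the log2 values of all probe sets of a gene were averaged, 118 of the 202 higher and 42 of the 61 lower genes stayed at least 2-fold apart. Genes described below that no longer reached 2-fold in that average were Utf1, Ugt8a, Sox3, Pdgfra, Tbx20, Isl1, Ncam1, Dsp, Col5a1, Dlc1, Fgf3, Jag1, Peg3, Col1a1, Sema6d, Sema5a, Epha4, Efna3, Bmp5, Lgr5, Lrig3, Foxf1 and Sdc3, and likewise the threshold neighbours Gas1, Fat4, Cebpd and Ptn. In Foxf1 another probe set gave a difference of -0.02, and in Sema6d the other probe sets gave -0.48 and 0.11.

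**Figure D1:**
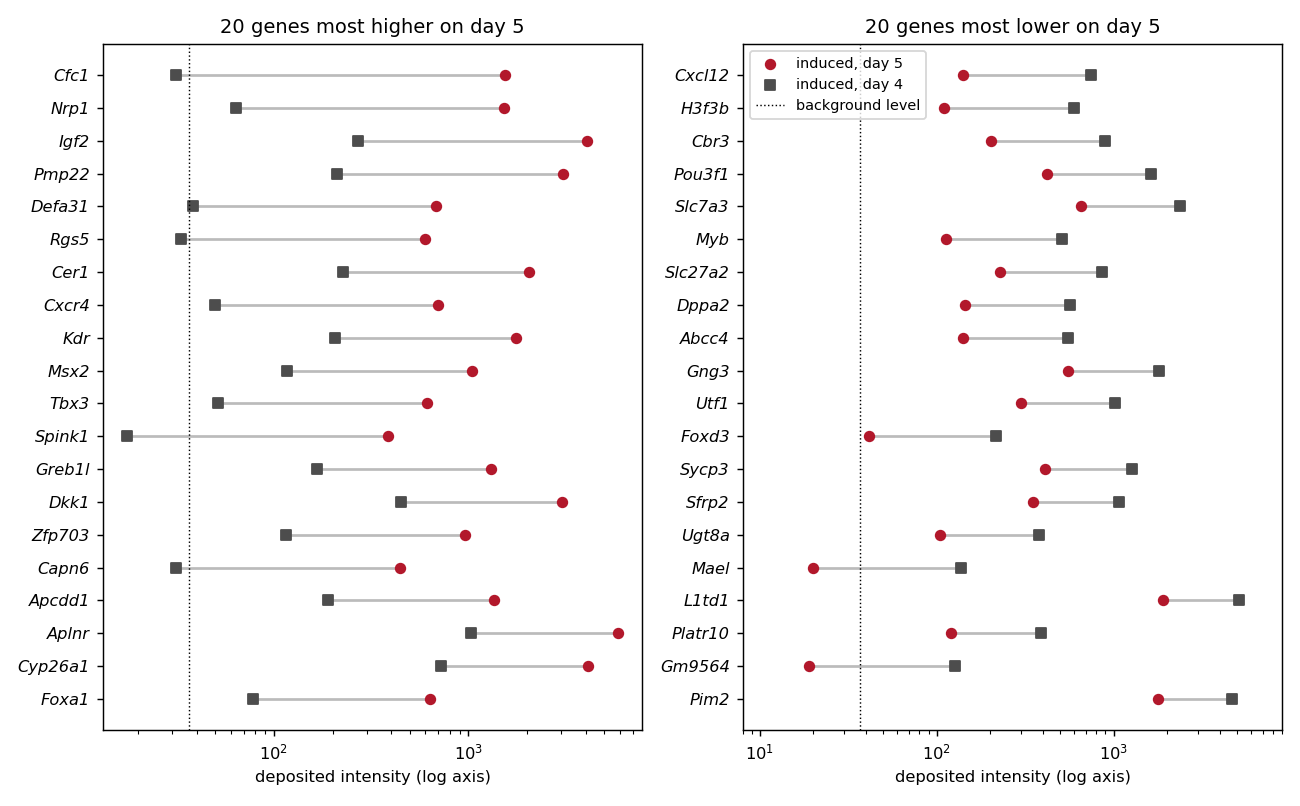
Deposited intensity (log axis) of the 20 genes most higher (left) and the 20 most lower (right) on day 5 in the induced cultures, with circles for day 5, squares for day 4 and a dotted line at the background level of 36.8. Cfc1, Rgs5, Capn6 and Spink1 lay under the line on day 4, and Mael and Gm9564 on day 5.

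The largest difference belonged to Cfc1, a cell-surface co-receptor of Nodal, which read 1540.0 on day 5, against 31.4 on day 4. Its day 4 value was under background, so the intensity was at least 41.9-fold higher. Nrp1, a co-receptor of semaphorins and vascular endothelial growth factor, read 1516 on day 5, against 64.1 on day 4, a difference of 3.78. The imprinted growth factor Igf2 read 4053 on day 5, against 269 on day 4, a difference of 3.69. Pmp22, a membrane protein of myelin and epithelia, read 3068 on day 5, against 212 on day 4, and Rgs5, a regulator of G-protein signalling, read 599 on day 5, against 33.2 on day 4. Each of these 5 genes was also at least 2-fold higher in the untreated cultures over the same day. Among the top 20 were also Tbx3, a T-box transcription factor of naive ESCs and of the early embryo (609 against 51.4), Greb1l (1304 against 167), Zfp703, a zinc finger repressor (954 against 115), Spink1, a protease inhibitor (385 against 17.6), and Capn6, a calpain (444 against 31.4), all with the day 5 intensity first. The probe set named Defa31 after a gut defensin read 684 on day 5, against 38.2 on day 4, and its annotation was not checked by sequence.

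Genes of bone morphogenetic protein (BMP) signalling were among the clearest groups. Of 22 listed, 19 were tested, 7 were at least 2-fold higher and none lower, with a median of 0.87 against 0 for all genes. Among the ligands, Bmp2 read 677 on day 5, against 102 on day 4, Bmp4 1246 on day 5, against 350.4 on day 4, and Bmp5 113 on day 5, against 10.4 on day 4. Of the genes known to respond to BMP, the homeobox gene Msx2 read 1046 on day 5, against 117 on day 4 and Msx1 709.6 on day 5, against 105 on day 4. The feedback inhibitors followed, with Bambi at 1160.0 on day 5, against 303 on day 4 and Smad6 at 379 on day 5, against 80.2 on day 4. Id3 and Id1, direct BMP targets that hold back helix-loop-helix factors, were just under 2-fold higher at 0.97 and 0.87. Smad7, which restrains both BMP and Nodal signals, was an exception at -0.53. All 7 of these 2-fold genes were 2-fold higher in the untreated cultures too, with Smad6 at 1.72 in the induced and 3.13 in the untreated cultures.

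The Wnt list held 5 genes at least 2-fold higher and 1 lower among 15 tested of 21, with a median of 0.35. The secreted Wnt antagonist Dkk1 read 3015 on day 5, against 451 on day 4, a difference of 2.61, and the noncanonical ligand Wnt5a read 468 on day 5, against 72.0 on day 4, a difference of 2.09. Rspo3, which strengthens Wnt signals, read 1344 on day 5, against 319 on day 4, and its receptor Lgr5 read 89.9 on day 5, against 15.2 on day 4. Frzb, another secreted antagonist, read 488 on day 5, against 143 on day 4 in the induced cultures, whereas in the untreated cultures it read 349 on day 5, against 709.6 on day 4. Sfrp2, another such antagonist and a gene of undifferentiated cells, was the lower member at 351 on day 5, against 1071 on day 4. The direct Wnt targets Axin2 and Sp5 differed by 0.35 and 0.41 in the induced and by -0.60 and -1.57 in the untreated cultures. In the untreated cultures 4 of the 15 were at least 2-fold higher and 3 lower, with a median of -0.08. Apcdd1, a membrane inhibitor of Wnt signals that is not on the list, read 1348 on day 5, against 190.0 on day 4 with induction.

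Of the 17 listed genes of Nodal signalling, 15 were tested and Cfc1 alone was 2-fold apart. The ligand Nodal read 2125 on day 5, against 2765 on day 4, a difference of -0.37. Its antagonists split, with Lefty1 at 1273 on day 5, against 2567 on day 4, a difference of -0.98, and Lefty2 at 2689 on day 5, against 2634 on day 4, a difference of 0.03. The co-receptor Tdgf1 stayed at 9716 on day 5, against 9740.0 on day 4. Without doxycycline Nodal, Lefty1 and Lefty2 were each at least 2-fold lower, with Nodal at 444 on day 5, against 2352 on day 4.

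Of the other signalling lists, Notch had 3 of 11 tested genes at least 2-fold higher and none lower, and fibroblast growth factor (FGF) 2 of 18 and none. In the Notch list the ligands Dll3 and Jag1 read 721 against 248 and 1443 against 563, and the target gene Hey1 read 248 against 75.8, each day 5 against day 4. In the FGF list, Dusp4, a phosphatase that ends FGF signals through ERK, read 1758 on day 5, against 656 on day 4 and the ligand Fgf3 read 110.2 on day 5, against 21.8 on day 4, while the target Etv5 differed by -0.59 and the ligand Fgf8 by 0.33. Of 6 tested retinoic acid genes, 2 were higher. Cyp26a1, which degrades retinoic acid, read 4128 on day 5, against 719 on day 4, a difference of 2.44, against 0.24 in the untreated cultures. Crabp2, which carries retinoic acid to its receptor, read 185 on day 5, against 64.3 on day 4.

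Markers of the anterior primitive streak and endoderm were higher in the induced cultures in 7 of 14 genes tested of 16, with none lower and a median of 1.12. Cer1, the secreted antagonist of Nodal, BMP and Wnt made by anterior endoderm, read 2046 on day 5, against 226 on day 4, a difference of 2.93. The chemokine receptor Cxcr4, a surface marker of definitive endoderm, read 699.6 on day 5, against 49.6 on day 4. The endoderm transcription factors Sox17, Foxa1 and Gata6 read 3875 against 690.1, 637 against 78.3 and 893 against 235, day 5 against day 4. The organizer homeobox genes Lhx1 and Gsc read 2502 against 813 and 1013 against 388 in the same order. Gata4, Hhex, Mixl1, Foxa2 and Eomes stayed under 2-fold, at 0.97, 0.83, 0.62, 0.55 and 0.40. Shh was near its day 4 level at 74.7 on day 5, against 84.0 on day 4. Without induction 3 of these 14 genes were 2-fold higher and 3 lower, and the median was -0.44.

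The visceral endoderm genes Afp, Ttr and Apoa1 stayed at or near background, at 9.7 against 15, 42.0 against 67.2 and 10.8 against 17.4, day 5 against day 4. Amn, a component of the visceral endoderm vitamin B12 receptor, read 85.5 on day 5, against 114 on day 4. Other genes of the extraembryonic endoderm list were well above background. Cubn, Lrp2, Dab2 and Apoe read 332.1 against 414.5, 314.6 against 372.9, 180.3 against 252.9 and 3575.4 against 2898.4, day 5 against day 4. Of the 20 listed genes on the array, 14 were above background on each of these days. No gene of the 13 tested in the extraembryonic endoderm list was 2-fold apart in the induced cultures, with Col4a1 and Col4a2, which encode basement membrane collagen, leading at 0.74 and 0.73.

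Genes of primitive streak and early mesoderm gave the highest list median, 1.18, with 7 of 14 tested genes (19 listed) at least 2-fold higher and none lower. Aplnr, the apelin receptor of nascent mesoderm, read 5860.4 on day 5, against 1032 on day 4. Kdr, the vascular endothelial growth factor receptor also called Flk1, read 1763 on day 5, against 205 on day 4. Pdgfra, a receptor of paraxial and other mesoderm, read 698 on day 5, against 199 on day 4, and Mesp1, a factor of the earliest cardiac mesoderm, read 660.4 on day 5, against 193 on day 4. Foxf1, a factor of lateral mesoderm, read 132 on day 5, against 13.5 on day 4, with the day 4 value under background, while in the untreated cultures it read 1172 on day 5, against 28.1 on day 4. Evx1 and Snai1 stayed under 2-fold at 0.99 and 0.68. Fst, the activin-binding protein, stayed at 4688 on day 5, against 5409 on day 4, and Hand1 differed by 0.42. In the untreated cultures 4 of the 14 were at least 2-fold higher and 2 lower, with a median of 0. Foxf1 and Hand1 differed by more there, at 3.97 and 2.02, but Kdr, Aplnr and Mesp1 by less, at 1.41, 0.98 and 0.05.

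Of the cardiac list, 9 of 17 genes were tested and 4 were higher. The T-box gene Tbx20 read 173 on day 5, against 14.6 on day 4 and the atrial myosin light chain Myl7 read 156 on day 5, against 19.3 on day 4, both under background on day 4. Isl1, of cardiac progenitors, read 512 on day 5, against 166 on day 4. Of 13 listed paraxial mesoderm and somite genes, 3 were tested. Tcf15 of that list was at least 2-fold lower at 78.5 on day 5, against 244 on day 4 and 1173 on day 3. It differed by -1.20 in the induced and -1.21 in the untreated cultures. Among 6 tested Hox genes (33 listed), Hoxb2 alone was 2-fold apart at 111 on day 5, against 19.8 on day 4, and Cdx2, a caudal regulator of Hox genes, read 66.4 on day 5, against 41.8 on day 4.

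Of 15 tested genes of blood and endothelium (26 listed), 2 were at least 2-fold higher in the induced cultures and none lower, Kdr and Flt1 being the higher ones, and the median was 0.38. Flt1, a second receptor of vascular endothelial growth factor, read 749 on day 5, against 185 on day 4. The blood regulator Tal1 read 30.4 on day 5, against 7.5 on day 4, both under background. The endothelial cadherin Cdh5 read 52.0 on day 5, against 18.8 on day 4, the embryonic globin Hbb-bh1 40 on day 5, against 7.7 on day 4, and the blood factor Fli1 25.7 on day 5, against 11.1 on day 4. Of the 15, 8 reached the intensity filter only on the untreated day 5 array, so the group in which they are high admitted them, and no count over all 15 is given there. Among the other 7, 2 were at least 2-fold higher in the induced and 4 in the untreated cultures. At most 3 members of any other list entered in that way, and counts for the untreated cultures include them. In the untreated cultures Hbb-bh1 read 1600.4 on day 5, against 7.3 on day 4 and Tal1 389 on day 5, against 24.9 on day 4. Both are among the 8 that only the untreated day 5 array admitted, so nothing is read from their contrast. The difference between treatments could not be tested, because 1 array stands behind each value.

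**Figure D2:**
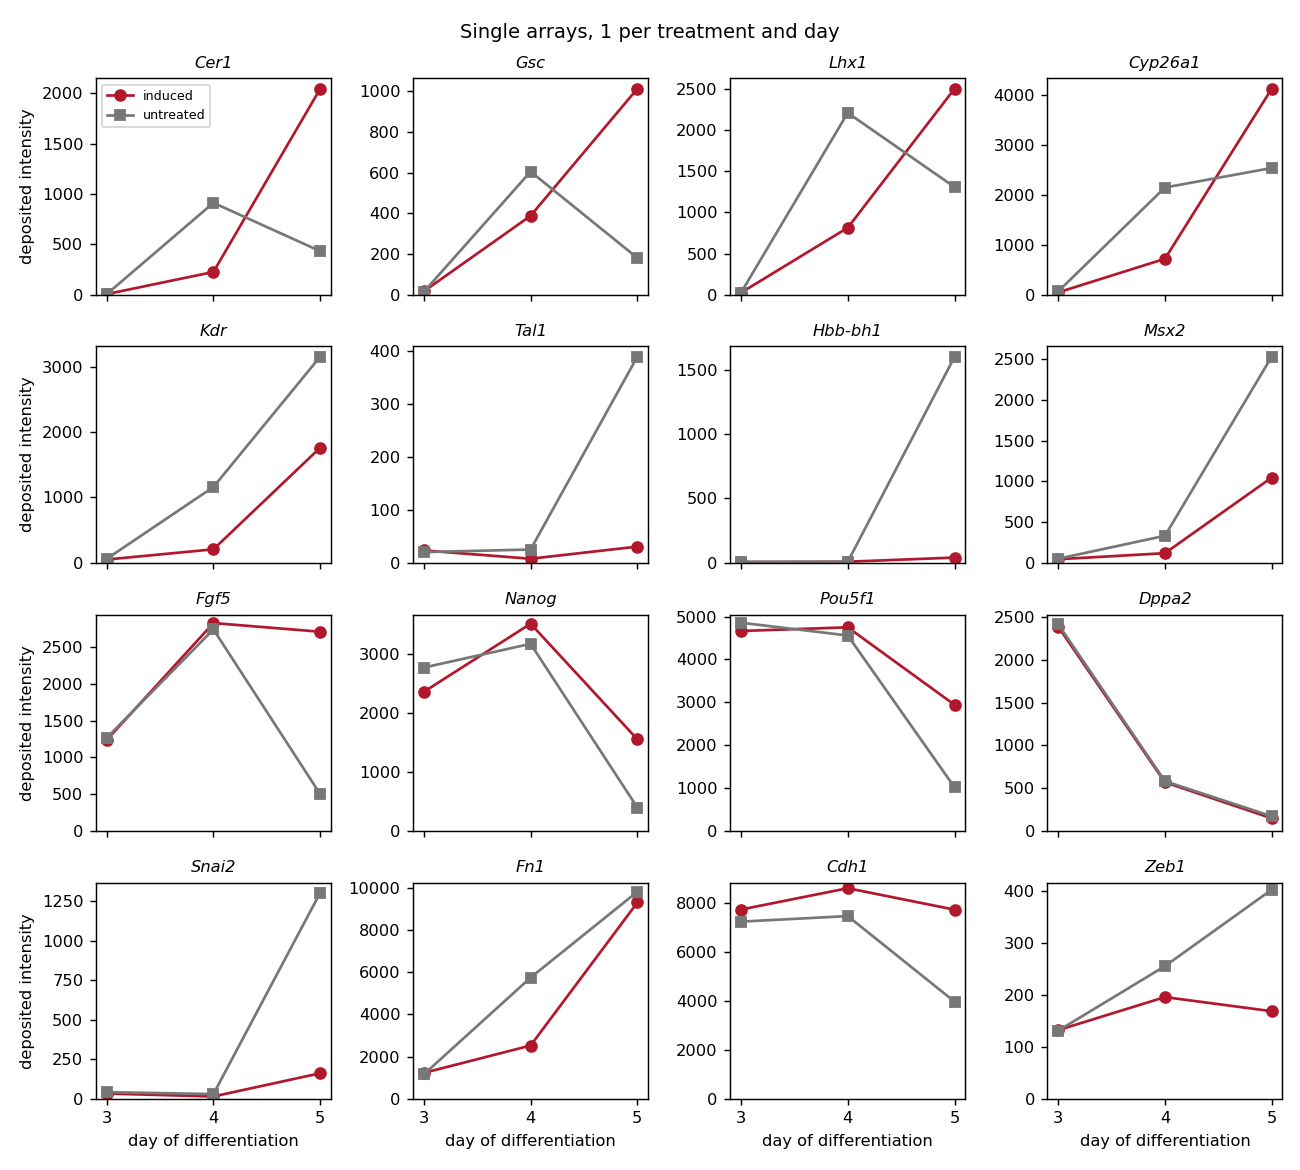
Deposited intensity (vertical axis, from 0) by day of differentiation for 16 genes, with circles for induced and squares for untreated cultures, 1 array per point. Cer1, Gsc and Lhx1 were highest on day 5 in the induced cultures and on day 4 in the untreated cultures. Tal1 and Hbb-bh1 stayed at 40 or less in the induced cultures. Both reached the intensity filter only on the untreated day 5 array, so nothing is read from their contrast between treatments.

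The mesenchymal list had 7 of 22 tested genes (25 listed) at least 2-fold higher, none lower, and a median of 0.43. Fn1, the matrix protein fibronectin, read 9313 on day 5, against 2526 on day 4, a difference of 1.86. Cdh2, the N-cadherin gained in EMT, read 6653 on day 5, against 2608 on day 4 and Cdh11, a mesenchymal cadherin, read 1809.6 on day 5, against 606 on day 4. The fibrillar collagen genes Col5a1 and Col1a1 read 502 against 139.8 and 89.7 against 13.9, day 5 against day 4. Snai2, the transcription factor Slug, read 162 on day 5, against 14.6 on day 4, under background on day 4, while in the untreated cultures it read 1305 on day 5, against 29.9 on day 4. The EMT regulators Zeb1 and Zeb2 read 169 against 196 and 55.8 against 32.7, differences of -0.17 and 0.36, and Twist1 and Vim differed by 0.35 and 0.45. In the untreated cultures 11 of the 22 were 2-fold higher, with a median of 1.0. Of these, 2 reached the intensity filter only on the untreated day 5 array. Among the other 20, 7 were 2-fold higher in the induced and 9 in the untreated cultures, with medians of 0.56 and 0.88.

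The epithelial list was nearly level. Of 32 genes tested (35 listed), 2 were at least 2-fold higher and none lower, and the median was -0.07. Cdh1, which encodes E-cadherin, read 7719.8 on day 5, against 8596 on day 4, a difference of -0.15. Epcam read 2692 on day 5, against 3208 on day 4 and the splicing factor of epithelia Esrp1 read 2158 on day 5, against 2110.2 on day 4. The higher members were Krt8, a simple epithelial keratin, at 8004 on day 5, against 3330.1 on day 4, and Dsp, the desmosome protein desmoplakin, at 4755 on day 5, against 2105 on day 4. The tight junction gene Marveld3 came closest to 2-fold lower at -0.97. Of the 32, 9 were at least 2-fold lower and 2 higher in the untreated cultures, with a median of -0.75.

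Among 24 genes that the literature names as miR-200 family targets, 22 were tested, 7 were at least 2-fold higher on day 5 and none lower. The 7 were Nrp1, Kdr, Fn1, Flt1, Cdh11, Dlc1 and Jag1. Ets1, an endothelial transcription factor, was just under 2-fold at 0.91 in the induced cultures, and differed by 2.49 in the untreated cultures. Bmi1, a Polycomb protein, and Sec23a, of the secretory coat, differed by 0.54 and 0.36, and Suz12 and Cfl2 by -0.16 and -0.15. The median was 0.28 in the induced and 0.50 in the untreated cultures.

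Among genes of pluripotency, 3 of the 10 core factors were at least 2-fold lower on day 5 and none higher, with a median of -0.52. Nanog read 1555 on day 5, against 3523 on day 4. Utf1, a chromatin protein of ESCs, read 301 on day 5, against 1024 on day 4, and the forkhead factor Foxd3 read 41.4 on day 5, against 216 on day 4. Pou5f1, which encodes Oct4, read 2940.2 on day 5, against 4751 on day 4 and Sox2 2190.0 on day 5, against 3470.2 on day 4, differences of -0.68 and -0.65, both short of 2-fold. Sall4, a zinc finger partner of Oct4, read 6015 on day 5, against 4744 on day 4. Without induction 5 of the 10 were 2-fold lower, and Pou5f1 read 1014 on day 5, against 4560.0 on day 4.

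In the naive ESC list, 2 of 12 tested genes (17 listed) were lower and Tbx3 was higher. Dppa2 and Dppa4, chromatin proteins of ESCs that act as a pair, read 145 against 567 and 315 against 877, day 5 against day 4. Zfp42, which encodes Rex1, read 459.7 on day 5, against 645 on day 4. Dppa2 differed by -1.66 in the induced and -1.53 in the untreated cultures, a like size in both, but the list did not move alike throughout. In the untreated cultures 5 of the 12 were at least 2-fold lower and 1 higher. The list median was -0.44 in the induced and -0.63 in the untreated cultures. Zfp42 differed by -0.45 and -1.11, and Klf5 by 0.19 and -1.04, induced first. Over days 3, 4 and 5 of induction Dppa2 read 2388, 567 and 145.

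The primitive ectoderm list, of genes active in the epiblast stage, separated into genes that were lower and genes that stayed. Of 9 tested of 10, the 3 that were at least 2-fold lower were Pou3f1, a POU factor, at 422 on day 5, against 1637 on day 4, Pim2, a kinase, at 1788 on day 5, against 4649 on day 4, and Sox3, at 102 on day 5, against 285 on day 4. The growth factor Fgf5 stayed at 2715 on day 5, against 2833 on day 4, and the homeobox factor Otx2 and the zinc finger factors Zic2 and Zic5 differed by -0.31, -0.49 and -0.44. In the untreated cultures 7 of the 9 were at least 2-fold lower, with a median of -2.01 against -0.44 in the induced cultures, and Fgf5 read 499 on day 5, against 2747 on day 4. Fgf15 alone was 2-fold higher in the untreated cultures, at 829.6 on day 5, against 107 on day 4, while in the induced cultures it read 104 on day 5, against 105 on day 4.

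Germ cell genes moved in both directions. Of 8 tested of 12, the interferon-inducible membrane proteins Ifitm1 and Ifitm3 read 2925 against 759 and 1623 against 682, and Prdm1, the repressor Blimp1, read 283 against 44.0, all day 5 against day 4 and all at least 2-fold higher. Ddx4, an RNA helicase that marks later germ cells, was lower at 72.5 on day 5, against 245 on day 4, and Dazl, an RNA-binding protein of germ cells, read 17.8 on day 5, against 36.8 on day 4.

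Other strongly lower genes came from no single listed pathway. Cxcl12, the ligand of Cxcr4, had the largest decrease and read 141 on day 5, against 741 on day 4, a difference of -2.05, while Cxcr4 differed by 2.91. Myb, a transcription factor of progenitor cells, read 113 on day 5, against 508 on day 4, and it differed by -0.33 in the untreated cultures. The transporters Slc7a3, of basic amino acids, and Slc27a2, of fatty acids, read 659 against 2375 and 227 against 859.7, and the enzyme Cbr3 read 204 against 893, day 5 against day 4. Meiosis and transposon defence genes were present among the 20 most lower genes, with Sycp3 of the synaptonemal complex at 408 on day 5, against 1265 on day 4 and Mael at 20.1 on day 5, against 137 on day 4. L1td1, an RNA-binding protein of ESCs, read 1893 on day 5, against 5092 on day 4.

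Of 12 tested imprinted growth genes (15 listed), 5 were at least 2-fold higher on day 5 and none lower, and the median was 0.56. The other 7 had values above day 4 by less than 2-fold, down to 0.01 for Meg3, where 50.4% of all genes tested had a higher value on day 5. Beside Igf2, the 2-fold genes were Phlda2, which limits placental growth, at 4548 on day 5, against 1156 on day 4, Mest at 2789.5 on day 5, against 1002 on day 4, the cyclin-dependent kinase inhibitor Cdkn1c at 2822 on day 5, against 1055 on day 4, and the zinc finger gene Peg3 at 6667 on day 5, against 2703 on day 4. In the untreated cultures 6 of the 12 were 2-fold higher, with a median of 1.03. Of the 12, 2 reached the intensity filter only on the untreated day 5 array. Among the other 10, 5 were 2-fold higher in each treatment, with medians of 0.95 in the induced and 1.03 in the untreated cultures.

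Guidance genes of the ephrin, semaphorin and plexin families had 6 of 34 tested genes at least 2-fold higher and none lower. The membrane semaphorin Sema6d read 750.1 on day 5, against 106 on day 4 and the ligand Efnb1 read 414 on day 5, against 105 on day 4. Sema5a, Plxna2, Epha4 and Efna3 differed by 1.35, 1.24, 1.20 and 1.02. No integrin or laminin gene was 2-fold apart among 15 tested. Of 12 tested collagen genes, Col18a1, a basement membrane collagen, was the lower one at 582 on day 5, against 1337 on day 4, with a difference of -0.08 in the untreated cultures.

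Several lists had few or no genes 2-fold apart. Over all genes tested, 2.02% were at least 2-fold higher and 0.61% lower. A list of this size with none lies near that share, so nothing is read from it, here or in the lists above. None of 20 proliferation genes was 2-fold apart, with a median of -0.10, and the cell cycle genes Mki67, Cdk1 and Pcna differed by 0.12, -0.02 and -0.08. No ribosomal protein gene among 40 and none of 9 housekeeping genes was 2-fold apart. Hprt, used as a loading gene in many PCR assays, read 2977 on day 5, against 2539 on day 4 in the induced cultures, but its level differed widely between treatments, with 102 on day 5, against 125 on day 4 in the untreated cultures. None of 14 tested cholesterol synthesis genes was 2-fold apart in the induced cultures, with a median of -0.15. Lower by any amount were 11, the lowest at -0.31, where 49.6% of all genes tested were lower. In the untreated cultures 4 were at least 2-fold higher, Dhcr7, Nsdhl, Lss and Mvd, with a median of 0.62, and Dhcr7, which catalyses the last step of cholesterol synthesis, read 413 on day 5, against 492 on day 4 in the induced and 1220.0 on day 5, against 447 on day 4 in the untreated cultures. In the hypoxia and glycolysis list none of 19 was 2-fold apart, with the mitochondrial kinase Pdk1 lowest at -0.86. None of 11 p53 response genes and none of 15 ATF4 target genes reached 2-fold, and of 13 immediate early genes Ier3 alone did, at 89.1 on day 5, against 241 on day 4. Of 8 early neural genes 1 was higher, the adhesion molecule Ncam1 at 1.02, and Sox3 was lower. Of 6 D cyclin and kinase inhibitor genes Cdkn1c alone was 2-fold apart, and none of 4 trophoblast genes was. Of 29 genes that the study discusses, some of them chosen on these arrays and so no independent evidence, 8 were at least 2-fold higher and 3 lower.

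**Figure D3:**
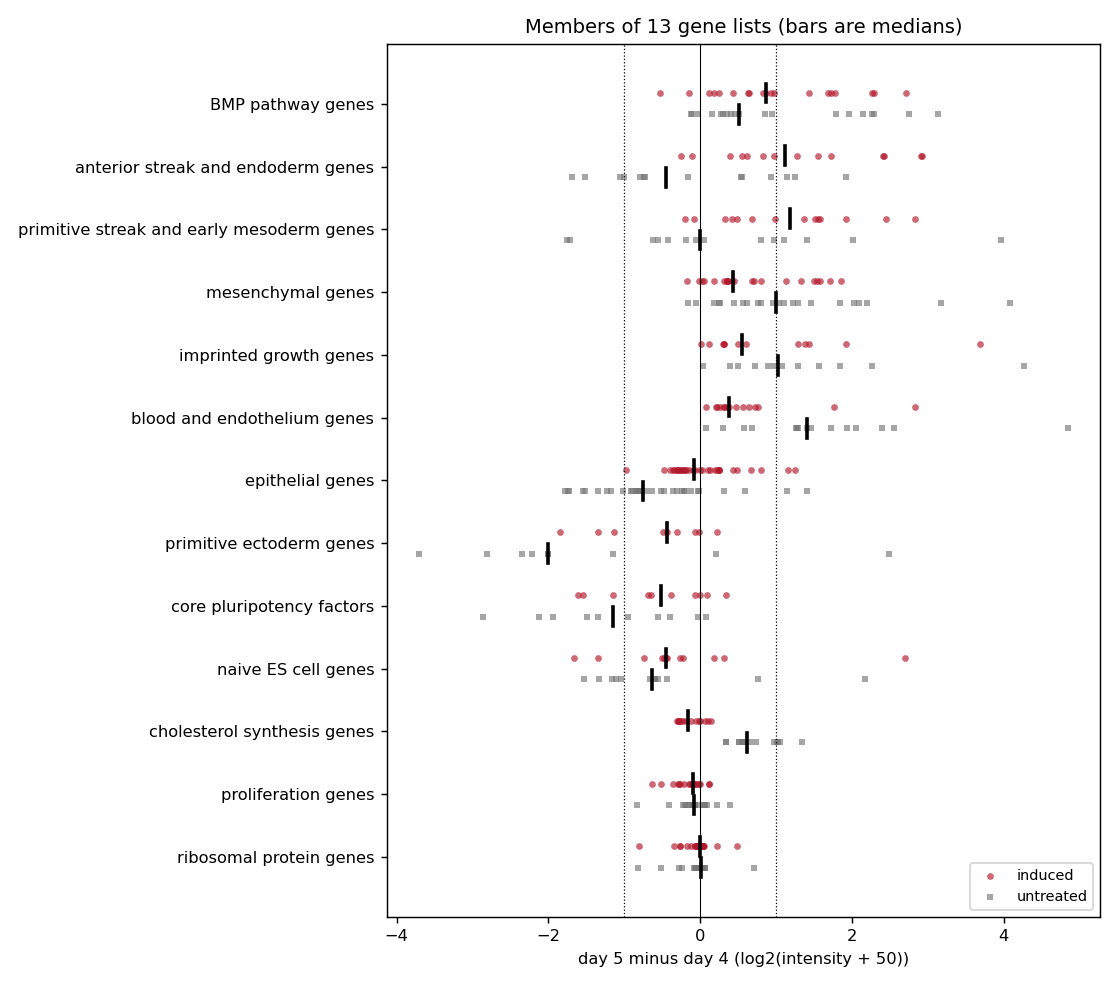
Difference of day 5 minus day 4, as log2(intensity + 50), for each tested member of 13 gene lists, with induced cultures (circles) above untreated cultures (squares) and black bars at the medians. The induced medians ran from -0.52 for the core pluripotency factors to 1.18 for primitive streak and early mesoderm genes, and the dotted lines mark 2-fold. Only the untreated day 5 array admitted 8 of the 15 blood and endothelium genes, 2 mesenchymal and 2 imprinted growth genes. Nothing is read from the untreated bar of the blood and endothelium list.

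Defining markers of feeder cells were mostly at or near background, whereas those of trophoblast were split. The feeder genes Thy1, Postn and Lum were under background on both induced arrays, and Dcn read 23.4 on day 5, against 52.0 on day 4. The trophoblast genes Elf5 and Tpbpa stayed under background, and Krt7 read 44.2 on day 5, against 24.8 on day 4, while Tfap2c, which germ cells and trophoblast share, was above it at 164 on day 5, against 104 on day 4. Gata3 read 55.6 on day 5, against 10.9 on day 4, and Cdx2 66.4 on day 5, against 41.8 on day 4. The extraembryonic endoderm genes Amn, Cubn, Lrp2, Dab2 and Apoe and the germ cell gene Ddx4, whose values stand above, were over background on both induced arrays. Summed over the 10 listed feeder genes, intensity was 193 on day 5 and 224 on day 4. Over the 8 trophoblast genes on the array it was 410 on day 5 and 264 on day 4, with 4 and 2 of them above background. The epiblast genes Pou5f1, Nanog and Sox2 were far above background on both days. In the untreated cultures they were too, at 1014, 394 and 1120 on day 5. Their presence therefore does not tell the induced cultures from the untreated.

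Set beside the untreated cultures, with which this comparison shares no array, most of the induced differences ran the same way. Of the 202 genes at least 2-fold higher, 109 (54.0%) were 2-fold higher in the untreated cultures too, 70 were higher by less, 21 were level or lower by less than 2-fold, and 2 were at least 2-fold lower. Those 109 were 37.1% of the 294 genes that were 2-fold higher in the untreated cultures (2.94% of genes tested). Of the 61 lower genes, 49 (80.3%) were 2-fold lower in the untreated cultures and the other 12 lower by less, and the 49 were 24.5% of the 200 genes 2-fold lower there (2%). The higher genes had a median difference of 1.36 in the induced and 1.11 in the untreated cultures, but the induced median rests on the genes having been chosen by that value. On day 4, 168 of the 202 were dimmer in the induced than in the untreated cultures (45.9% of all genes), 46 of them at least 2-fold (0.5% of all genes), but choosing genes by a low induced day 4 value favours this, so nothing is read from these counts. On day 5, 126 of the 202 were dimmer in the induced cultures (46.7% of all genes), 42 of them at least 2-fold (1.52% of all genes). At least 2-fold brighter were 23 (1.97% of all genes). The induced day 5 value also chose these genes, so nothing is read from the day 5 counts either.

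The genes whose induced difference exceeded the untreated one by most were led by Cer1, at 2.93 in the induced and -1.0 in the untreated cultures, where it read 432 on day 5, against 913 on day 4. Gsc and Lrig3, a membrane protein of the LRIG family, were the 2 genes at least 2-fold apart in opposite directions. Gsc read 1013 on day 5, against 388 on day 4 in the induced cultures and 181 on day 5, against 605 on day 4 in the untreated cultures. Lrig3 read 1069 on day 5, against 474 on day 4 in the induced cultures and 285 on day 5, against 719 on day 4 in the untreated cultures. Lhx1 differed by 1.56 in the induced and -0.74 in the untreated cultures, and Igfbp3, an IGF-binding protein, by 0.44 and -1.91 in that order. Apln, the ligand of Aplnr, read 795 on day 5, against 1038 on day 4 in the induced cultures and 201 on day 5, against 1538 on day 4 in the untreated cultures.

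The genes whose induced difference fell short by most were led by Hbb-bh1, with Zfp711, a zinc finger gene, next at 122 on day 5, against 65.9 on day 4 in the induced cultures and 1474 on day 5, against 74.5 on day 4 in the untreated cultures. Tdo2, a tryptophan-degrading enzyme, read 35.4 on day 5, against 4.5 on day 4 in the induced cultures and 540.3 on day 5, against 2.6 on day 4 in the untreated cultures. The Wnt receptor Fzd4 read 69.0 on day 5, against 94.3 on day 4 in the induced cultures and 601 on day 5, against 78.3 on day 4 in the untreated cultures. The hyaluronan link protein Hapln1 stayed under background with induction at 12 on day 5, against 6.3 on day 4, against 346 on day 5 without it. Hbb-bh1, Tdo2 and Hapln1 reached the intensity filter only on the untreated day 5 array. The group in which they are high admitted them, so nothing is read from their place in this ranking.

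**Figure D4:**
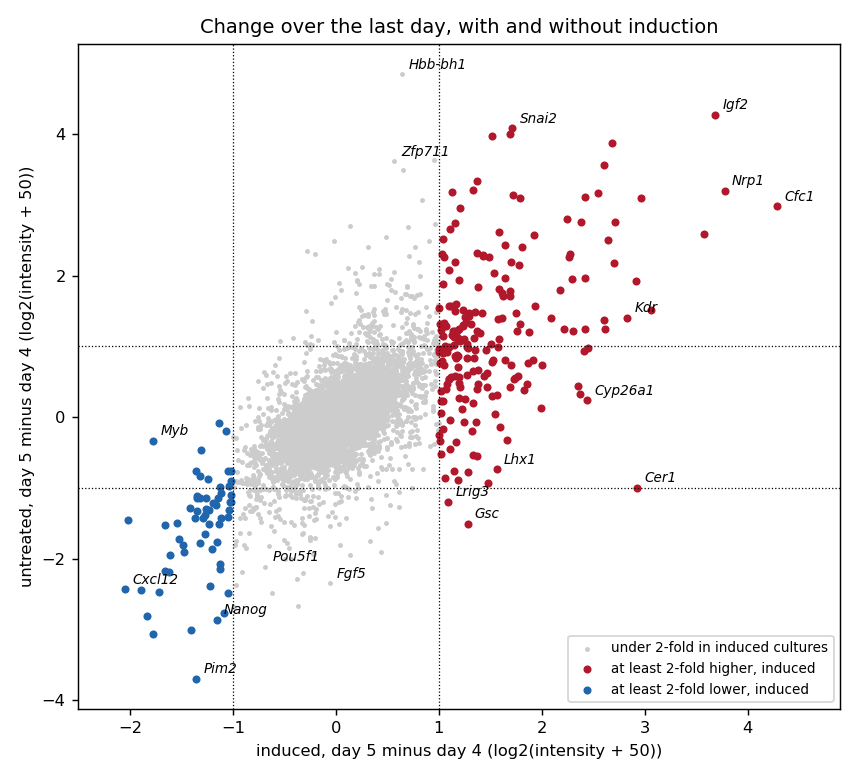
Day 5 minus day 4 as log2(intensity + 50) in induced (horizontal axis) and untreated cultures (vertical axis) for 9997 genes, with the 202 genes at least 2-fold higher and the 61 at least 2-fold lower in the induced cultures in colour and dotted lines at 2-fold. Gsc and Lrig3 are the coloured points in the lower right corner beyond both lines, with Cer1 just above it, and all 61 lower genes lie below 0 on the vertical axis.

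The step before, from day 3 to day 4, shares the day 4 array, so its values are given only beside the later ones. Of the 202 genes, 50 had been at least 2-fold higher on day 4 than on day 3 as well (1.18% of all genes), 116 higher by less, 35 level or lower by less and 1 at least 2-fold lower. Among the 61 lower genes 16 had been at least 2-fold lower (0.82% of all genes), 37 lower by less, 7 level or higher by less and 1 at least 2-fold higher. Over days 3, 4 and 5 of induction Aplnr read 17.8, 1032 and 5860.4, Lhx1 23.7, 813 and 2502 and Sox17 185, 690.1 and 3875. By contrast Cfc1 read 24.9, 31.4 and 1540.0 and Capn6 31.3, 31.4 and 444, so their difference lay in the last day. The 2 genes that turned were Sdc3, a syndecan, at 199, 57.1 and 213, and H3f3b, a histone H3.3 gene, at 246, 599 and 110.0.

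The one test made here is of the mean difference of both treatments, in a limma fit of treatment and day over all 6 arrays. It called 380 genes higher (3.8%) and 233 lower (2.33%) on day 5 than on day 4 after Benjamini-Hochberg adjustment, and it says nothing of the induced cultures alone. Of the induced 2-fold genes, 108 of the 202 higher (53.5%) and 48 of the 61 lower (78.7%) were among those called. The fit averages in the same induced difference that chose these genes, so the overlap is partly built in and lends them no support. Igf2 rose by 3.98 ± 0.24 (SE) across both treatments (limma adjusted p = 0.021) and Msx2 by 2.74 ± 0.30 (SE) (limma adjusted p = 0.028). Krt8 rose by 1.33 ± 0.08 (SE) (limma adjusted p = 0.021), and Dppa2, at a mean of -1.59 ± 0.09 (SE), fell (limma adjusted p = 0.021). With 1 array per treatment and day, these SEs rest largely on how far the treatments disagree, and they are no spread of repeated cultures. Cer1, whose differences were opposite, was not called (limma adjusted p = 0.49), and neither were Kdr and Nanog (limma adjusted p = 0.064 and 0.074). The fit has 2 residual degrees of freedom, and without the induced or without the untreated day 4 array it called 0 genes, with 1374 and 1361 at an unadjusted p under 0.05. Without the day 5 arrays it called more, 1243 higher and 1092 lower without the induced one and 621 and 366 without the untreated one. Without either day 3 array it called 184 higher and 92 lower.

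Promoters of the 2-fold genes were read from RefSeq (GRCm38.p6), 250 bases before to 50 after each gene's first listed start, for 150 of the 202 higher, 46 of the 61 lower and 8161 of all genes tested. The motif TATAAA on either strand was in 14% of the promoters of higher genes, in 13% of those of lower genes and in 6.58% of all. Within 40 to 20 bases before the start it lay in 6%, 4.35% and 1.24% in the same order. Promoters of higher genes held a median of 17 CG pairs, those of lower genes 16.5 and those of all genes 22, while the median GC content was 61%, 59.7% and 61.7%. The motif CACCTG on either strand, which Snail and Zeb factors can bind, was in 16.7%, 21.7% and 16.9%. The octamer ATGCAAAT of POU factors was in 2 of 150, 3 of 46 and 109 of 8161, and CCAAT in 37.3%, 39.1% and 39.3%. A match describes these letters and no site. The promoters of Cxcr4 and Dkk1 are shown because both were among the 20 most higher genes and hold TATAAA, in capitals where either strand matches. That of Cxcr4 is at chr1:128592250-128592549 and that of Dkk1 at chr19:30549447-30549746, both on the minus strand.
Cxcr4 promoter: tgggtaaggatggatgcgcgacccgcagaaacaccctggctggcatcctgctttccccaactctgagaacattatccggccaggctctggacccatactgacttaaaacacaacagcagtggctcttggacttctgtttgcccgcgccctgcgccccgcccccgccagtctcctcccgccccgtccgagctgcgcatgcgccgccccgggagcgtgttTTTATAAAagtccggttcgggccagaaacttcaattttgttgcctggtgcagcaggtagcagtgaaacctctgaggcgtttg
Dkk1 promoter: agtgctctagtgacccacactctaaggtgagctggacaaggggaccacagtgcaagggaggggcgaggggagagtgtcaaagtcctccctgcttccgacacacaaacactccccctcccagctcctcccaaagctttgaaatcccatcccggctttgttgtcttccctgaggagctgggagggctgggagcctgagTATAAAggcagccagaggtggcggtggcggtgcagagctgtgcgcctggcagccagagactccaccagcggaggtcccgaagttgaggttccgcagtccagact
In Cxcr4 the motif begins 32 bases before the annotated start on the other strand and 30 before it on the gene's own, and in Dkk1 54 before it.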

How the data were processed

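RNA of 6 embryoid body cultures of A2.miR200c was hybridised to Affymetrix MOE430 arrays, 1 per treatment and day. The authors normalized and modelled the arrays with dChip and deposited 1 intensity per probe set on a linear scale, 45037 in all; the dChip version and settings are not given in the sources used here. Of these, 34945 had 1 gene symbol in the platform annotation, 932 several and 9160 none, and no gene was named from the last 2 kinds. The 34945 gave 18193 genes, 9997 of them tested. The median deposited intensity per array was 34.5 to 36.9, and 48.8% to 50.1% of probe sets per array were above background. One array per condition limits the precision, and no interval can be given.

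From the deposited intensities log2(value + 50) was computed, and a gene counted as higher or lower from 2-fold on, with no test. The fit across treatments used limma 3.58.1 in R 4.3.3 with an intensity trend, two-sided, at an adjusted p of 0.05, and was tested on simulated data first. Other steps ran in Python 3.11.15 with pandas 2.3.3. Named genes were the 20 most different each way, up to 5 members of each of 38 lists, the genes most apart between treatments, those opposite between treatments or turning between days, Hprt and the threshold neighbours. Other genes named were chosen after their values were seen. The comparison and the lists were chosen with earlier results of these data known. Alternatives were other pseudocounts, scalings, filters, thresholds and probe set averages. Some genes were not analysed here.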

Additional observations from a re-analysis of the deposited data

Results flagged for a closer look

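Gsc and Lrig3 were set apart because the 2 treatments moved in opposite directions by at least 2-fold between day 4 and day 5. Gsc differed by 1.28 in the induced and -1.51 in the untreated cultures, a gap of 2.79. Lrig3 differed by 1.09 in the induced and -1.20 in the untreated cultures, a gap of 2.29, and averaged over its probe sets its induced difference was 0.82. Neither difference between treatments was tested, since 1 array stands behind each value.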

How the results depend on the processing

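Counts moved most with the threshold, the pseudocount and the use of several probe sets. At 1.5-fold, 533 genes were higher and 304 lower in the induced cultures, and at 3-fold 69 and 11. With a pseudocount of 16, 109 genes were lower, 79 of them also in the untreated cultures and 30 not, and 244 were 2-fold lower in the untreated cultures alone. With a pseudocount of 100 that last count was 98. Averaging all probe sets of a gene left 118 genes higher, with 69 higher and 32 lower in both treatments, 49 higher in the induced cultures and under 2-fold higher in the untreated, and 119 the other way round. Quantile normalization and scaling to 1 median moved the median of all genes by under 0.03 and left 196 and 189 genes higher and 65 and 66 lower. Of 212 named genes, none changed the sign of a 2-fold difference under these 5 alternatives, and 20 crossed 2-fold under probe set averages, 11 and 13 under pseudocounts of 16 and 100, and 1, Lefty1, under either scaling. In the limma fit, lower calls were 364 with quantile normalization and 151 with no filter. Calls were 164 higher and 77 lower without the day 3 arrays, and 109 and 61 without the trend. Leaving out each array in turn gave 0 to 1243 higher and 0 to 1092 lower calls. The limma fit compares the days within each treatment, so treatment is its block, and the labels carry no replicate numbers for any other pairing.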

Other observations

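The genes of the next paragraphs were chosen after their values were seen, so they support no theme. Beside Ifitm1 and Ifitm3, other genes known to respond to interferon read higher on day 5 with induction. Usp18, which removes the ubiquitin-like protein ISG15, read 232 on day 5, against 27.8 on day 4, and the immunity-related GTPases Iigp1, Igtp and Irgm2 read 727 against 196, 499 against 197 and 265 against 95.6, day 5 against day 4. Rtp4 read 140.3 on day 5, against 38.5 on day 4. The induced differences were 1.86, 1.66, 1.15, 1.11 and 1.10 in that order, against 0.47, -0.32, -0.76, -0.45 and -0.03 in the untreated cultures.

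Among lower genes were those of the neuronal intermediate filaments Nefl, Nefm and Ina, at -1.12, -1.04 and -1.12 in the induced and -2.08, -2.49 and -2.14 in the untreated cultures. Nqo1 and Gclm, which protect against oxidants, read 83.6 against 227 and 369 against 992 with induction, day 5 against day 4. Guidance ligands outside the listed families were higher, with Slit2 at 263 on day 5, against 71.3 on day 4, its receptor Robo1 at 863 on day 5, against 382 on day 4, and Ntn1, which encodes netrin, at 364 on day 5, against 131 on day 4, while Ntn1 differed by -0.89 in the untreated cultures. The growth factor genes Tgfb1 and Tgfb2 differed by 1.56 and 1.64 in the induced and by 0.31 and 1.97 in the untreated cultures.

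Averaged over all probe sets of a gene, Rtp4, Slit2, Robo1, Ntn1 and Tgfb1 fell short of 2-fold in the induced cultures, at 0.51, 0.62, 0.34, 0.65 and 0.85.

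Probe sets with several gene symbols or none were left out of all counts above. Of the 1948 that reached the filter, 27 were at least 2-fold higher and 13 at least 2-fold lower on day 5 in the induced cultures.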
